A study of Mus musculus with 10 samples.

Results

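COPII is the protein coat that buds transport vesicles from the endoplasmic reticulum. The genes examined were its subunits and the SAR1 GTPases that start the coat, taken by symbol from the deposited count table: Sar1a and Sar1b, Sec23a and Sec23b, Sec24a, Sec24b, Sec24c and Sec24d, and Sec13 and Sec31a. All 10 were found among the 57010 genes of the table, and all 10 passed the filter on low counts. SAR1, once loaded with GTP, inserts into the membrane and recruits the inner coat, a dimer of SEC23, which stimulates the GTPase, and SEC24, which binds the sorting signals of cargo. The outer coat of SEC13 and SEC31 then assembles over it as a cage. Secretory epithelia, the mammary gland among them, send milk proteins, membrane receptors and matrix through this step, and the SEC24 paralogues differ in the cargo they prefer.

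The tissue was whole mammary tumour from untreated mice carrying MMTV-PyMT, a transgene with which a viral promoter drives polyoma middle T antigen in mammary epithelium. Tumours of genotype PyMT; RHBDL4 -/- (KO, 5 libraries) were set against PyMT; RHBDL4 +/+ (WT, 5 libraries), all taken 5 weeks after tumour onset and all bearing the transgene; the age of the mice was not in the labels. RHBDL4, encoded by Rhbdd1, is a rhomboid protease in the membrane of the endoplasmic reticulum, so the coat acts in the same organelle, and the question asked here is whether its transcripts differed between the genotypes. The libraries are counts of poly(A) RNA reads per gene, with 25.74 to 43.26 M counts each (M, mega).

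The labels do not tie libraries to animals. The leading number of the library name is shared by KO replicates 3 and 4, by WT replicates 1 and 2 and by WT replicates 3 and 4, and such libraries may share an animal. The p-values therefore describe the spread among these libraries, which may in part be technical. Each library has its own batch label; if these mark batches, batch and genotype cannot be told apart. Rhbdd1, as a check of the labels, was at 22.3, 15.1, 17.3, 13.2 and 16.8 CPM (counts per M counts of the library, scaled by TMM) in KO replicates 1 to 5. It was at 45.4, 38.6, 33.7, 33.5 and 25.0 CPM in WT replicates 1 to 5, with no overlap between the groups on this scale. For WT replicate 5 the separation rested on TMM scaling, since per total count that library lay within the KO range. WT replicate 5 stood apart. Its TMM factor was 0.588 against 1.01 or more in the other 9 libraries, and its 10 luminal epithelial markers, led by Epcam and Krt18, summed to 119.5 CPM against 3830 CPM or more. In it 10 skeletal muscle markers, led by Acta1 and Myh4, summed to 135070 CPM against at most 1492 CPM, and 10 adipocyte markers, led by Car3 and Fabp4, to 29442 CPM against at most 2774 CPM. The labelled tissue, mammary tumour, thus had its epithelial markers in 9 libraries and hardly in WT replicate 5. The comparisons of the coat genes and their partners are therefore given with and without it. Leaving it out does not even out these markers between the genotypes. Of the other 9 libraries, KO replicate 4 was highest for muscle markers (1492 CPM, against at most 84.8 CPM in WT replicates 1 to 4). KO replicates 2 and 4 were highest for adipocyte markers (2774 and 2541 CPM, against at most 418 CPM). The lowest KO sums were 3.03 and 43.1 CPM, and the part of these markers in the comparisons was not tested. In bulk tissue fewer cells of a type and less RNA per cell cannot be told apart.

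Promoter sequences are shown for the 2 SEC24 genes whose balance differed most between the genotypes, Sec24c and Sec24d. A part of the short gap between Sar1b and Sec24a, which are neighbours read in opposite directions, is also shown. They come from the RefSeq promoter table for GRCm38.p6, a different build from that of the counts (GRCm39), and each stretch ends before the first annotated start of the gene. Capitals mark a match to CCAAT on either strand, and no capitals mean that no motif searched was found in the stretch. The positions are chr14:20674071-20674307 on the plus strand for Sec24c and chr3:123267246-123267454 on the plus strand for Sec24d. For the gap, chr11:51763635-51763662 is given on the strand of Sar1b. That stretch stops short of the start of Sar1b in the GENCODE annotation (51763687), so the rest of the gap is not shown.
Sec24c: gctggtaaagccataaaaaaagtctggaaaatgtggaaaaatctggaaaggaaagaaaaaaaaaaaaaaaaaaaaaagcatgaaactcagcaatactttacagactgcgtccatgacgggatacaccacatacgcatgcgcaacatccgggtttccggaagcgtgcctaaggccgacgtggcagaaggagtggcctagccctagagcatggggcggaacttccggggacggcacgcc
Sec24d: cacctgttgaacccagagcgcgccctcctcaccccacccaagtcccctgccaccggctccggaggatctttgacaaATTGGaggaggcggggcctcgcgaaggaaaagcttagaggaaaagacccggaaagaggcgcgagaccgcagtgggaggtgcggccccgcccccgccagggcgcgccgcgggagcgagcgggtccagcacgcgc
Sar1b and Sec24a gap: gcggggcctgggacctgcggactgtcac

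The promoter table held 12 windows for the 10 genes, each reaching from 250 bases before a RefSeq start to 50 after it, with a GC content of 39.7% to 72.0%. Both strands were searched for 4 motifs, and a match is only a description of the letters. TGACGTGG, the core of the unfolded protein response element, lay in 2 of the 12 windows, those of Sec23a and Sec24d, against 0.676% of the 32851 windows of the same length in the table. In Sec24d it began 26 bases before the RefSeq start (position -26), which falls outside the printed stretch. CCAAT was in 4 of 12, against 37.4% of all windows. The cyclic AMP element TGACGTCA (1.79% of all windows) and the ER stress response element, CCAAT and CCACG with 9 bases between them (0.119%), were in 0 of 12. The ER stress response element contains CCAAT, so these 2 searches overlap. In the GENCODE annotation of GRCm38, Sec24a (chr11:51692264-51763634, minus strand) and Sar1b (chr11:51763687-51791925, plus strand) have starts 53 bases apart. The RefSeq window of Sec24a (chr11:51756785-51757084) lies inside that gene and does not cover this start, which falls in the window of Sar1b. Also inside their annotated genes were the window of Sec24b and the downstream windows of Sec31a and Sec23b.

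Levels of different genes were compared per kilobase of exon (all annotated exons of a gene merged), over the 9 libraries without WT replicate 5. Sar1b was highest at 72.8 ± 10.1 CPM per kb (SD, n = 9), followed by Sar1a at 48.6 ± 3.00. Sec24c (28.5 ± 2.62), Sec13 (26.2 ± 3.38) and Sec31a (20.3 ± 1.43) came next, on the same scale. Sec23b at 13.7 ± 1.45, Sec24d at 11.7 ± 2.73, Sec24b at 11.01 ± 0.67, Sec23a at 8.25 ± 1.01 and Sec24a at 3.98 ± 0.38 CPM per kb closed the order. Neighbours in this order had overlapping ranges for Sec24c and Sec13, Sec13 and Sec31a, Sec23b and Sec24d, and Sec24d and Sec24b. Within libraries, Sec13 was above Sec31a in 9 of 9, Sec24c above Sec13 in 8, Sec23b above Sec24d in 7 and Sec24d above Sec24b in 6. The GTPases were thus at a higher level per kb than any coat subunit, and within each SEC family 1 paralogue led. The leads of Sar1b over Sar1a and of Sec24c over Sec13 depended on the length used. Per kb of coding sequence, which is 594 bases in both SAR1 genes, Sar1a stood at 306 ± 18.9 and Sar1b at 154 ± 21.3 CPM per kb. By the same length Sec13 stood at 86.5 ± 11.1 and Sec24c at 54.5 ± 5.01 CPM per kb. By the longest transcript Sec13 was again above Sec24c (52.2 against 40.2 CPM per kb), while Sar1b stayed above Sar1a.

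**Figure D1:**
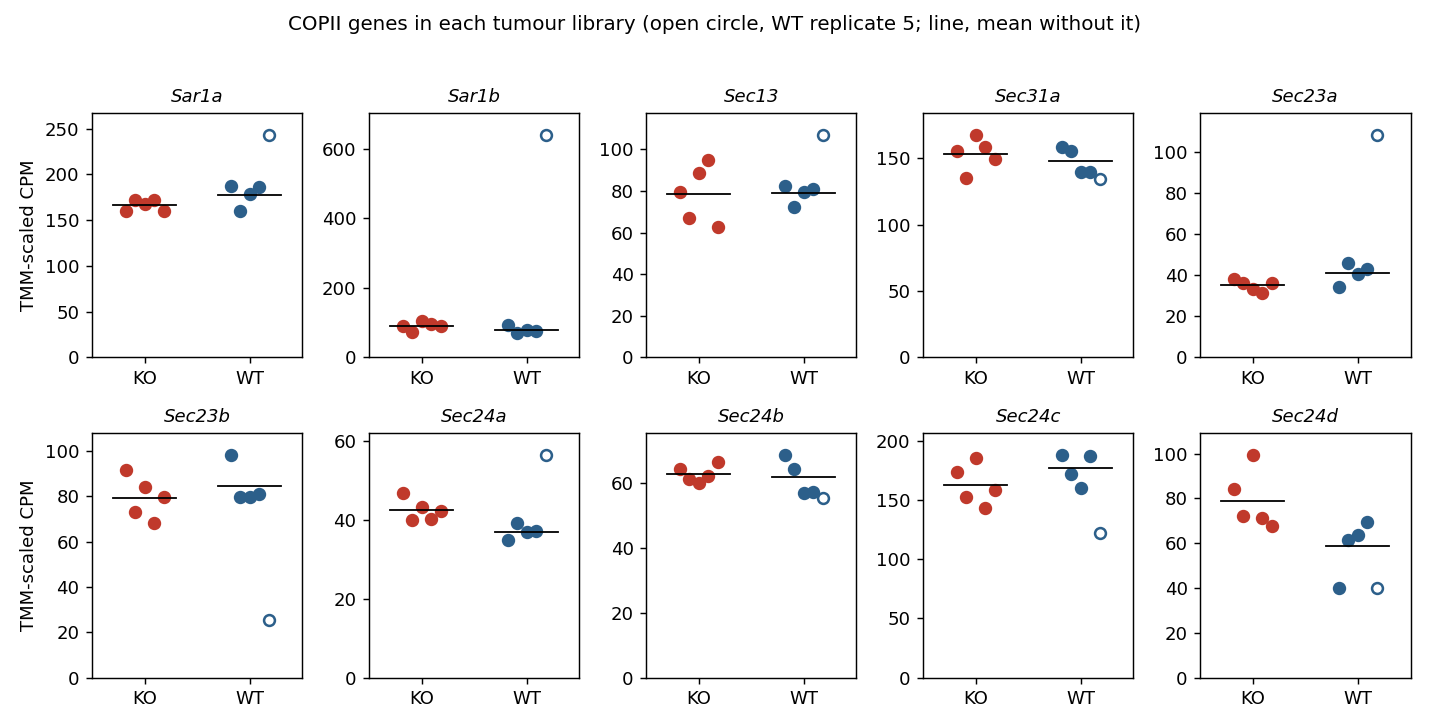
TMM-scaled CPM (vertical axis, from 0) of each COPII gene in the 5 KO and 5 WT libraries; each point is a library, the open circle is WT replicate 5 and the line is the group mean without it. WT replicate 5 is the highest of all libraries for 5 of the genes and the lowest for the other 5.

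The SAR1 GTPases did not differ between the genotypes beyond their spread, and on the TMM scale WT replicate 5 was the highest library for both. Sar1a was at 160, 172, 168, 172 and 159.7 CPM in KO replicates 1 to 5 and at 187, 160, 178, 186 and 243 CPM in WT replicates 1 to 5. On the TMM scale the groups overlapped only through WT replicate 2, and the other WT libraries lay above every KO library. Per total count without TMM, WT replicate 5 lay below all 9 other libraries. The log2 fold change of KO against WT was -0.20 ± 0.13 (SE) with all 10 libraries and -0.08 ± 0.08 without WT replicate 5 (edgeR quasi-likelihood adjusted p = 0.686 and 0.720). Sar1b, whose human counterpart is mutated in chylomicron retention disease, was at 91.4, 73.4, 104, 97.5 and 90.7 CPM in KO replicates 1 to 5. In WT replicates 1 to 5 it was at 92.2, 71.2, 79.4, 74.8 and 639 CPM. The level in WT replicate 5 was 7.05 times the median of the other 9 libraries, which spanned 71.2 to 104 CPM. That single library set the direction: the log2 fold change was -1.06 ± 0.64 with it and 0.22 ± 0.12 without it (edgeR adjusted p = 0.675 and 0.506). Muscle and adipocyte markers were high in the same library, and their part in the Sar1b level was not tested.

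In the inner coat, the SEC23 paralogues went opposite ways in WT replicate 5. Sec23a, the paralogue mutated in human cranio-lenticulo-sutural dysplasia, was at 38.0, 36.0, 33.1, 31.5 and 36.4 CPM in KO replicates 1 to 5 and at 34.3, 46.0, 40.5, 43.2 and 108 CPM in WT replicates 1 to 5. The KO range ran from 31.5 to 38.0 CPM and overlapped the WT range only through WT replicate 1. Its log2 fold change was -0.63 ± 0.30 with all 10 libraries (edgeR adjusted p = 0.669) and -0.21 ± 0.11 without WT replicate 5 (adjusted p = 0.493). Sec23b, mutated in human congenital dyserythropoietic anaemia, was at 91.8, 73.0, 84.2, 68.0 and 79.5 CPM in KO replicates 1 to 5. It was at 98.1, 79.5, 79.5, 80.8 and 25.6 CPM in WT replicates 1 to 5. WT replicate 5 was the lowest library, at 0.322 times the median of the other 9, where Sec23a was at 2.97 times. The log2 fold changes of Sec23b were 0.13 ± 0.30 and -0.07 ± 0.11 with and without that library (edgeR adjusted p = 0.901 and 0.822). An antisense gene, Gm17529, overlaps Sec23a, and since the strand setting of the counting is unknown, its reads may be among those of Sec23a.

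Of the 4 SEC24 cargo adaptors, Sec24a and Sec24d had the smallest p among the 10 genes without WT replicate 5. With all 10 libraries Sec24d and Sec23a had the smallest. Sec24d was at 84.1, 72.2, 99.3, 71.2 and 67.8 CPM in KO replicates 1 to 5 and at 40.2, 61.7, 63.8, 69.4 and 40.0 CPM in WT replicates 1 to 5. On the TMM scale all KO libraries but replicate 5 lay above every WT library, and WT replicates 1 and 5 were the lowest. Per total count without TMM, KO replicate 4 lay below WT replicate 4. The log2 fold change was 0.52 ± 0.19 with all 10 libraries (edgeR adjusted p = 0.669) and 0.44 ± 0.18 without WT replicate 5 (adjusted p = 0.387). It was not called in either comparison. Leaving out WT replicate 1 as well took the log2 fold change from 0.44 to 0.29 (edgeR adjusted p = 0.481), a shift of over 1.5 times that rests on 1 library. WT replicate 1 also had the lowest sum over 10 fibroblast markers, led by Col1a1 and Col3a1, at 229 CPM. The other WT libraries had 1897, 7316, 6465 and 12059 CPM and the KO libraries 4240 to 7994 CPM. The part of fibroblasts in the Sec24d level was not tested.

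Sec24a was at 46.8, 40.1, 43.4, 40.3 and 42.3 CPM in KO replicates 1 to 5 and at 34.8, 39.2, 36.9, 37.3 and 56.4 CPM in WT replicates 1 to 5. Without WT replicate 5 the groups did not overlap on the TMM scale, KO lying higher (40.1 to 46.8 against 34.8 to 39.2 CPM). Of the 10 genes this held for Sec24a alone, where 2% of all genes tested lay wholly higher in KO and 3.44% wholly lower. Per total count without TMM, the Sec24a groups overlapped, WT replicate 2 lying above KO replicate 4. With all 10 libraries 0 of the 10 genes had groups that did not overlap, against 0.807% of all genes higher and 1.18% lower. The log2 fold change of Sec24a was 0.06 ± 0.15 with all 10 libraries (edgeR adjusted p = 0.911) and 0.22 ± 0.08 without WT replicate 5 (adjusted p = 0.376). It ranged from 0.18 to 0.24 when a further library was left out. With scaling by library size alone it was 0.19 ± 0.10 without WT replicate 5 (edgeR adjusted p = 0.518). The snoRNA gene Gm25291 lies within Sec24a on the same strand.

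Sec24b was at 64.3, 61.4, 60.2, 62.3 and 66.5 CPM in KO replicates 1 to 5 and at 68.7, 64.5, 57.0, 57.4 and 55.4 CPM in WT replicates 1 to 5. The WT range, 55.4 to 68.7 CPM, enclosed the KO range, 60.2 to 66.5 CPM. The log2 fold changes were 0.05 ± 0.10 with and 0.04 ± 0.08 without WT replicate 5 (edgeR adjusted p = 0.875 and 0.876). Sec24c, the most abundant SEC24 gene per kb, was at 174, 153, 186, 143 and 158 CPM in KO replicates 1 to 5. In WT replicates 1 to 5 it was at 188, 172, 160, 187 and 122 CPM. The groups overlapped, with log2 fold changes of -0.03 ± 0.15 and -0.11 ± 0.10 (edgeR adjusted p = 0.958 and 0.700). The antisense gene 6230400D17Rik and the miRNA gene Mir6946 overlap Sec24c.

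The outer coat did not differ beyond its spread. Sec13, a beta-propeller protein that also serves in the nuclear pore, was at 79.6, 67.2, 88.6, 94.9 and 62.8 CPM in KO replicates 1 to 5. In WT replicates 1 to 5 it was at 82.6, 72.4, 79.6, 81.0 and 107 CPM. The KO libraries bracketed WT replicates 1 to 4. Sec31a, the rod of the cage, was at 155, 135, 168, 158 and 149 CPM in KO replicates 1 to 5 and at 158, 156, 139.6, 139.4 and 134 CPM in WT replicates 1 to 5. The log2 fold changes were -0.10 ± 0.16 and 0.01 ± 0.13 for Sec13 (edgeR adjusted p = 0.842 and 0.978, with and without WT replicate 5). Those of Sec31a were 0.07 ± 0.11 and 0.07 ± 0.09 (edgeR adjusted p = 0.839 and 0.800).

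**Figure D2:**
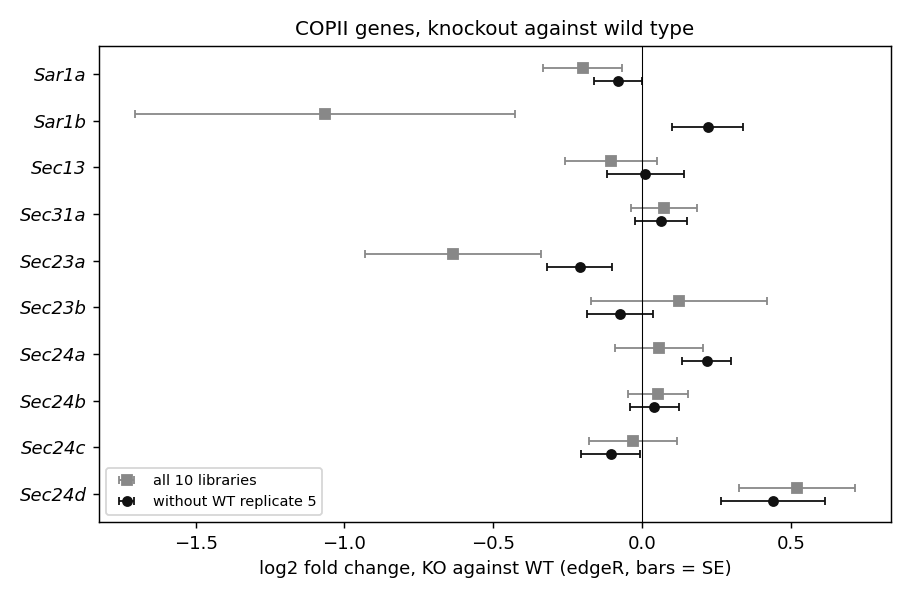
Log2 fold change of KO against WT (horizontal axis) for each COPII gene from edgeR, with all 10 libraries (grey squares) and without WT replicate 5 (black circles); bars are the standard error. Sar1b moves from -1.06 to 0.22 and Sec23a from -0.63 to -0.21 when that library is left out, while Sec24d stays at 0.44 or above.

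As a group, 0 of the 10 COPII genes were called at an adjusted p under 0.05 in either comparison. edgeR called 0% of the 18577 genes tested with all 10 libraries and 0.0105% of the 19016 without WT replicate 5. At an unadjusted p under 0.05 there was 1 COPII gene with all 10 libraries (Sec24d), where 7% of all genes passed, and 2 without WT replicate 5 (Sec24a and Sec24d), where 11.6% passed. DESeq2 and limma-voom with sample quality weights also called 0 of the 10. With all 10 libraries they called 0.269% and 0.0915% of all genes, and without WT replicate 5 they called 2.28% and 0.752%. In these fits the lowest adjusted p of a COPII gene was 0.140, for Sec24a in limma-voom without WT replicate 5. The log2 fold change was above 0 for 6 of the 10 genes without WT replicate 5, with a median of 0.03, beside 53.2% and a median of 0.03 over all genes tested. With all 10 libraries it was above 0 for 5 of 10, with a median of 0.01 beside -0.06. The summed level of the 10 genes was 884 to 1034 CPM in KO libraries, 915 to 984 CPM in WT replicates 1 to 4 and 1531 CPM in WT replicate 5. The high sum there rests on Sar1b, which alone gave 639 of the 1531 CPM, and on TMM scaling. As a share of all counts, the 10 genes took 0.0892% in WT replicate 5, below the 0.0949% to 0.106% of the other 9 libraries.

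TMM scaling decided on which side of the other libraries WT replicate 5 fell for 3 genes. With it, Sar1a, Sar1b, Sec13, Sec23a and Sec24a lay above all 9 others and the remaining 5 below. Per total count without TMM, only Sar1b (372 CPM against at most 105) and Sec23a (62.9 CPM against at most 50.4) lay above, and the other 8 lay below all 9. Sar1b and Sec23a were thus high, and Sec31a, Sec23b, Sec24b, Sec24c and Sec24d low, on both scales. Scaling by library size in place of TMM moved the median log2 fold change of all genes by 0.13 with all 10 libraries. Relative to that median, Sec13 was at -0.05 with TMM and -0.02 with library size, and Sec24c at 0.03 and -0.01.

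Ratios between paralogues of 1 library do not depend on its scaling, and 5 were compared. Sec24c to Sec24d had log2 ratios of 1.05, 1.08, 0.90, 1.01 and 1.22 in KO replicates 1 to 5, and of 2.23, 1.48, 1.33, 1.43 and 1.61 in WT replicates 1 to 5. Every KO library lay below every WT library, WT replicate 5 included, so that Sec24d made up more of the pair in KO tumours. The difference was -0.56 ± 0.17 (SE) with all 10 libraries (2-sided exact permutation p = 0.00794, the smallest possible for groups of this size; adjusted over the 5 ratios, 0.0397). Without WT replicate 5 it was -0.57 ± 0.21 (exact permutation p = 0.0159, again the smallest possible, adjusted 0.0794). With 9 libraries a single ratio cannot pass the adjustment alone under this 2-sided definition, and it passed under another (exact permutation adjusted p = 0.0397 by absolute difference). The difference passed in 1 of the 10 fits that leave out a library, that without WT replicate 1, where it was -0.41 (exact permutation adjusted p = 0.0397) beside a Sec23 ratio that passed as well. Without WT replicates 1 and 5 it was -0.36 (exact permutation adjusted p = 0.0893), a shift of over 1.5 times. When libraries with the same leading number were summed, 4 KO and 3 WT units did not overlap either (difference -0.51, exact permutation p = 0.0571, the smallest possible, adjusted 0.286). Sec24d enters both this ratio and the fold change given for it, so the 2 results are not independent.

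**Figure D3:**
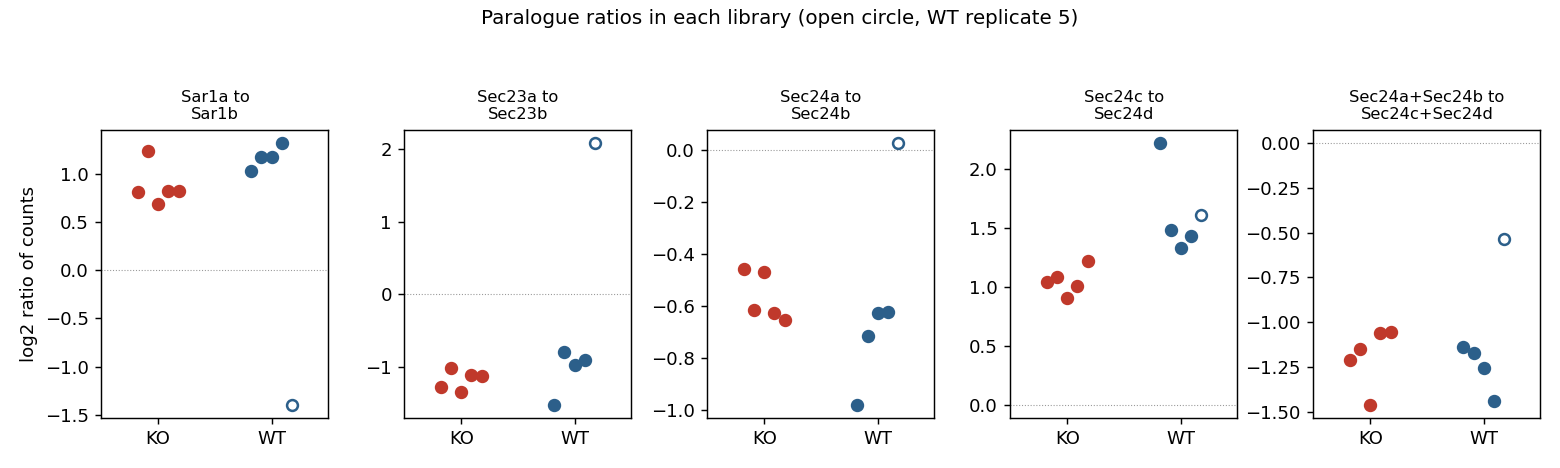
Log2 ratio of counts of paralogues (vertical axis, a separate range in each panel) in each KO and WT library; each point is a library and the open circle is WT replicate 5. For Sec24c to Sec24d the KO libraries lie between 0.90 and 1.22 and all WT libraries at 1.33 or above.

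The other 4 ratios did not pass in either comparison. Sar1a to Sar1b was 0.81, 1.23, 0.69, 0.82 and 0.82 in KO replicates 1 to 5 and 1.02, 1.17, 1.17, 1.32 and -1.39 in WT replicates 1 to 5 (log2). Its difference was 0.22 with WT replicate 5 and -0.30 without it (exact permutation adjusted p = 0.976 and 0.159). Sec23a to Sec23b lay between -1.35 and -1.02 in KO libraries and between -1.52 and -0.79 in WT replicates 1 to 4, with WT replicate 5 at 2.08. Its difference was -0.75 with WT replicate 5 and -0.13 without it (exact permutation adjusted p = 0.556 and 0.492). It passed only without WT replicate 1, at -1.03 (exact permutation adjusted p = 0.0397), where WT replicate 5 was kept. Sec24a to Sec24b differed by 0.02 and 0.17 (exact permutation adjusted p = 0.976 and 0.159), and Sec24a with Sec24b to Sec24c with Sec24d by -0.08 and 0.06 (0.976 and 0.492).

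As shares of each family per kb of exon, Sec24c held 48.9% ± 0.99 of the SEC24 level in KO libraries (SD, n = 5) and 54.9% ± 2.78 in WT replicates 1 to 4 (SD, n = 4). In WT replicate 5 Sec24c held 48.2%, within the KO range of 47.2% to 49.8%, so the groups did not overlap only when that library was left out. Sec24d held 23.5% ± 1.95 and 18.2% ± 3.86, in the same order. Sec24b held 19.95% ± 2.01 in KO libraries and Sec24a, the smallest part, 7.57% ± 0.42. Sec23b held 57.0% to 68.7% of the SEC23 level in the 9 libraries, whereas in WT replicate 5 Sec23a held 84.6%. Sar1b held 54.5% to 64.9% of the SAR1 level in the 9 libraries and 88.7% in WT replicate 5. Per kb of exon, the leading SEC23 gene thus changed in the library rich in muscle and fat markers, while Sar1b led the SAR1 pair in every library. Per kb of coding sequence the SAR1 leader changed too. By that length Sar1a held 61.7% to 71.4% in the 9 libraries, and Sar1b held 72.4% in WT replicate 5. By the longest transcript Sar1a held 42.5% to 53.4% in the 9 libraries. The part of muscle and fat tissue was not tested.

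**Figure D4:**
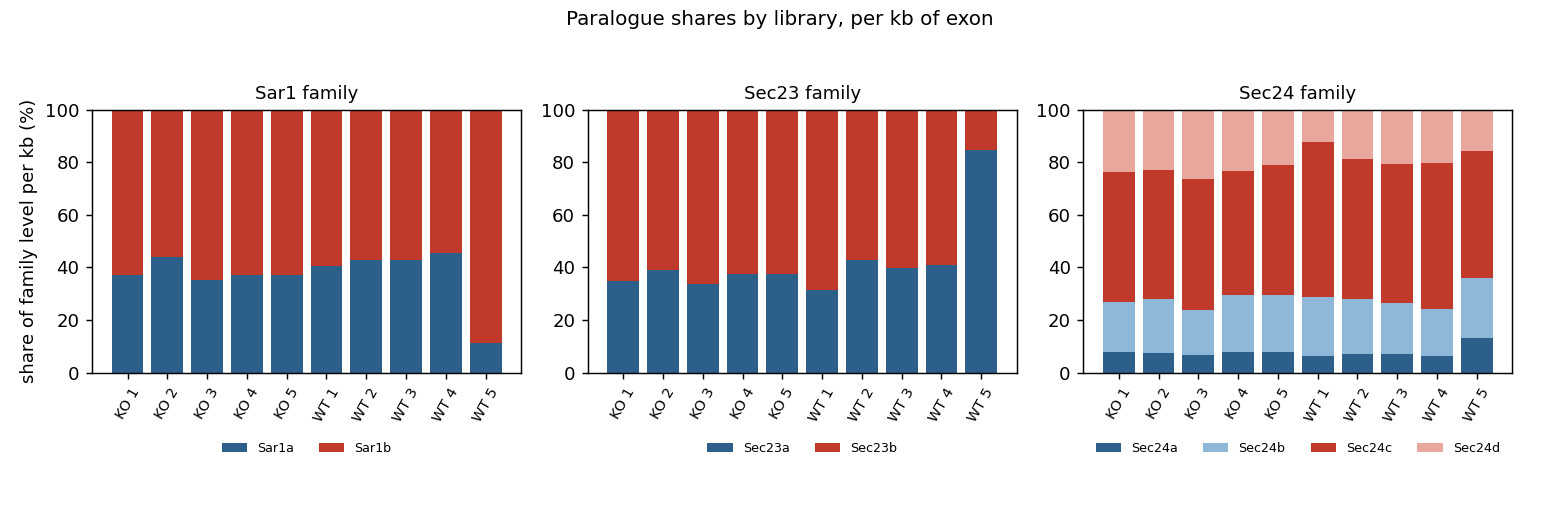
Share of each paralogue in the summed level of its family per kb of exon (vertical axis, percent) in each library, for the SAR1, SEC23 and SEC24 families. WT replicate 5 stands out with Sar1b at 88.7% and Sec23a at 84.6%, and Sec24d takes 21.1% to 26.5% in KO libraries and 12.5% to 20.8% in WT libraries.

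Genes that act with the coat were read from 6 lists, whose members were chosen with earlier results of these data known; edgeR called 0 of their 89 genes in either comparison. At an unadjusted p under 0.05 there were 6 of the 89 with all 10 libraries and 9 without WT replicate 5, where 7% and 11.6% of all genes passed, so these counts are near the background. Over all genes tested, 53.2% had a log2 fold change above 0 without WT replicate 5 (median 0.03) and 43.8% with it (median -0.06). At exit sites, where SEC16, TANGO1 and the SAR1 exchange factor Preb gather the coat, 8 of 12 genes had a log2 fold change above 0 without WT replicate 5, with a median of 0.10, and 8 of 12 with it, with a median of 0.05. Mia3, which encodes TANGO1, the receptor that exports bulky collagens, was at 162, 155, 136, 189 and 162 CPM in KO replicates 1 to 5. It was at 132, 117, 125.7, 118 and 149 CPM in WT replicates 1 to 5. WT replicate 5 reached into the KO range, and without it the groups did not overlap. Mia3 had a log2 fold change of 0.40 ± 0.10 without WT replicate 5 (edgeR adjusted p = 0.286) and 0.33 ± 0.13 with it (edgeR adjusted p = 0.669). DESeq2 and limma-voom called it without that library (adjusted p = 0.0246 and 0.0475). Sec31b, the second SEC31 paralogue, was at 4.56 ± 1.21 CPM in KO (SD, n = 5) and 3.12 ± 0.36 CPM in WT replicates 1 to 4 (SD, n = 4), with groups that overlapped. WT replicate 5 was at 18.5 CPM on the scale of all 10 libraries and turned the direction: the log2 fold change was 0.55 ± 0.25 without it and -0.49 ± 0.59 with it (edgeR adjusted p = 0.437 and 0.802).

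Cargo receptors between the endoplasmic reticulum and the Golgi had 7 of 14 genes above 0 without WT replicate 5 and 7 of 14 with it, with medians of 0.00 and 0.02. The 2 with the smallest p were Yif1b (log2 fold change -0.28 ± 0.14, edgeR adjusted p = 0.474) and Mcfd2, the partner of the lectin Lman1 (0.29 ± 0.15, adjusted p = 0.503). Over all 10 libraries they were at -0.54 ± 0.23, WT replicate 5 being the highest for Yif1b at 33.1 CPM, and at 0.39 ± 0.20 (edgeR adjusted p = 0.669 for both). Tethering and fusion factors had 14 of 25 above 0 without WT replicate 5 and 12 of 25 with it, with medians of 0.06 and 0.00. The Golgi SNAREs Gosr1 and Gosr2 came first there, at 0.32 ± 0.12 and 0.43 ± 0.17 without that library (edgeR adjusted p = 0.360 and 0.377) and 0.29 ± 0.12 and 0.36 ± 0.17 with it (adjusted p = 0.669 for both). The COPI coat, which carries cargo back to the endoplasmic reticulum, had 8 of 14 above 0 without WT replicate 5, with a median of 0.02, and 11 of 14 with it, with a median of 0.10. Its Arfgap3, a GTPase-activating protein of ARF1, was at 0.52 ± 0.18 and Copg2, a coatomer subunit, at -0.24 ± 0.12 without that library (edgeR adjusted p = 0.345 and 0.484). With it they were at 0.67 ± 0.26 and -0.10 ± 0.22 (edgeR adjusted p = 0.669 and 0.899). Transcription factors of secretory capacity had 9 of 12 above 0 without WT replicate 5, with a median of 0.08, and 11 of 12 with it, with a median of 0.18. Atf6 and Creb3 had the smallest p there, at 0.29 ± 0.13 and 0.26 ± 0.13 without that library (edgeR adjusted p = 0.455 and 0.488). With it they were at 0.14 ± 0.17 and 0.28 ± 0.14 (edgeR adjusted p = 0.814 and 0.669). None of these 4 lists held a gene called by DESeq2 or limma-voom without WT replicate 5, and with all 10 libraries neither tool called a gene of the 6 lists.

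Sec13 also belongs to the Y-shaped complex of the nuclear pore and to GATOR2, a regulator of nutrient signalling to mTORC1. Of 12 partners there, 2 had a log2 fold change above 0 without WT replicate 5, with a median of -0.11, and 5 had an unadjusted p under 0.05, where 11.6% of all genes passed. When WT replicate 5 was included, 6 of 12 were above 0, with a median of -0.05, and 2 passed, where 7% of all genes did. The 5 were the nuclear pore genes Nup37, Nup133, Nup43, Nup107 and Nup160, and with all 10 libraries the last 3 no longer passed, WT replicate 5 being the lowest library for each. Nup37 was at 18.0 ± 3.44 CPM in KO (SD, n = 5) and 27.2 ± 3.25 CPM in WT replicates 1 to 4 (SD, n = 4). Its log2 fold change was -0.60 ± 0.16 (quasi-likelihood adjusted p = 0.288 in edgeR). Nup133 was at 24.1 ± 3.62 and 33.2 ± 2.97 CPM, with a fold change of -0.46 ± 0.13 on the log2 scale (edgeR adjusted p = 0.296). In the fit of all 10 they were at -0.52 ± 0.19 and -0.49 ± 0.14 (edgeR adjusted p = 0.669 for both). Without WT replicate 5 the groups overlapped for neither gene, but with it those of Nup37 did (17.6 CPM there against up to 21.1 CPM in KO). Without that library DESeq2 called both (adjusted p = 0.0313 and 0.0491) while limma-voom did not. The 10 markers of cell division, led by Mki67 and Top2a, summed to 396 to 779 CPM in KO libraries, 888 to 1153 CPM in WT replicates 1 to 4 and 51.0 CPM in WT replicate 5, and their part in the nuclear pore levels was not tested. Sec13 itself differed by 0.01 without WT replicate 5.

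The genes whose pattern over the 9 libraries lay nearest to each COPII gene were found from the mean absolute difference of centred log2 CPM, over 10193 other genes with a mean of at least 10 CPM. Sec24d had Tanc2 nearest, at 0.081, and Sec24a had Qk at 0.042, where the median over all genes was 0.32 and 0.22. Sec24c had Rab6a, a GTPase of Golgi traffic, at 0.043, and Sec24b had Faf2 at 0.038. Sar1b had Stx8 at 0.035 and Sar1a Nudt16l1 at 0.030. Sec31a had Srp72, a protein of the signal recognition particle, at 0.033, and Sec13 had Ntmt1 at 0.046. Sec23a had Casp8ap2 at 0.030 and Sec23b Mad2l2 at 0.045. For none of the 10 was another COPII gene the nearest; the closest was Sec23b for Sec24c, at rank 47. With 9 libraries and so many genes, a near match is a description of these libraries.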

How the data were processed

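RNA of 10 whole mammary tumours was sequenced after poly(A) selection, with stranded libraries per the labels' protocols. The values are raw read counts per Ensembl gene, deposited by the authors with 1 column per library, 0 columns being unused. Per the submitters' processing notes, FastQC, STAR, featureCounts, DESeq2 and the build GRCm39 were used, with versions, annotation release, strand setting and multi-mapping not given in the sources used here. Depending on these, reads of overlapping or antisense genes and of near-identical paralogues could have been split or dropped. Symbols came from the gene name table (52029 of 57010 genes, 99.66% of counts).

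KO and WT were compared with edgeR 4.0.16 in R 4.3.3 (glmQLFit and glmQLFTest, robust, TMM, filterByExpr), once with all 10 libraries and once without WT replicate 5. The p-values were adjusted by Benjamini-Hochberg over all genes tested, with calls at 0.05. The SE of a log2 fold change is its size over the square root of F. CPM use TMM factors of all 10 libraries unless a mean without WT replicate 5 is given, which uses those of 9. Exon lengths came from GENCODE on GRCm38. The 5 paralogue ratios were tested by exact permutation, 2-sided as 2 times the smaller tail. The members and lists were chosen with earlier results of these data known. Named genes are the members, Rhbdd1, per list the 2 with the smallest p without WT replicate 5, the nearest gene of each member and the 2 most abundant markers of a list described; 3 further nuclear pore genes (Nup43, Nup107 and Nup160) were named after their values were seen.

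Alternatives were RLE scaling, DESeq2 1.42.0 at its default settings, limma-voom 3.58.1 with quality weights per sample, dropping the low-count filter, at least 10 counts in every library, sums of libraries with 1 leading number, a random block on it, other lengths, and leaving out each library. Chosen after seeing the data were scaling by library size alone, DESeq2 with independent filtering at 0.05, ratios of the summed libraries and another 2-sided definition of the permutation p. Only the edgeR fit was run on simulated counts, which shared a common mean profile and so held no outlying library. The outcome is not given here.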

Additional observations from a re-analysis of the deposited data

Results flagged for a closer look

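Within each genotype, 30 groups of 5 libraries (10 genes and 5 ratios in each genotype) were checked for a library whose gap to its nearest neighbour took more than 0.71 of the range. There were 7 such libraries, and chance alone gives about 1 in 20 groups where groups are independent. Here they were not, since the WT groups share WT replicate 5 and the ratios reuse the genes. The 7 therefore cannot be set against that rate. In 6 of the 7 the library was WT replicate 5. It was the highest WT library for Sar1b at 639.2 CPM, for Sec23a at 108.09 CPM and for Sec24a at 56.447 CPM, and the lowest for Sec23b at 25.555 CPM. It was also the lowest for the log2 ratio of Sar1a to Sar1b at -1.395 and the highest for that of Sec23a to Sec23b at 2.081. This library holds the high muscle and adipocyte markers and the low luminal markers given with the samples. For Sec24a its standing above the other libraries depended on TMM scaling, since per total count it lay below all of them. The other was KO replicate 2, the highest KO library for the log2 ratio of Sar1a to Sar1b at 1.23.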

How the results depend on the processing

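No COPII gene was called in any fit run, though DESeq2 gave no adjusted p for Sar1b with all 10 libraries. Directions turned only for values near 0 or set by WT replicate 5. With all 10 libraries, Sar1b went from -1.06 to 0.1878 in limma-voom with quality weights and ranged from -1.266 to 0.2216 with a library left out. Sec13 (-0.1836 to 0.01179), Sec23b (-0.07361 to 0.2577) and Sec24c (-0.1051 to 0.02024) also turned with a library left out. With library size alone Sec13 was at 0.05494 and Sec24c at 0.0616. With sums per leading number Sec24a was at -0.02306 and Sec24c at 0.03893, and with that number as a block Sec24c was at 0.03228. Without WT replicate 5, Sec13 was at -0.01901 with library size alone, -0.09563 in limma-voom with quality weights, -0.01064 without the filter, -0.0443 with sums and -0.03331 with the block. With a further library left out it ranged from -0.06574 to 0.08233, and Sec23b from -0.1286 to 0.001816. Sec23b was at 0.02105 in limma-voom with quality weights. Sec24d kept its direction but was smaller in limma-voom with quality weights, at 0.2653 with all 10 libraries and 0.2702 without WT replicate 5. In edgeR it was at 0.5197 and 0.4405.

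For the ratios, leaving out a library gave 0 to 2 passing of 5, and sums per leading number 0, where fewer units limit the smallest p. Without WT replicate 5, counting splits with an absolute difference as large, in place of 2 times the smaller tail, gave 1 passing ratio in place of 0: Sec24c to Sec24d (exact permutation p = 0.00794, adjusted 0.0397). With a library left out of the 10, the differences ranged from -0.2972 to 0.3806 for Sar1a to Sar1b and from -0.07985 to 0.1717 for Sec24a to Sec24b (-0.09355 with sums). That of Sec24a with Sec24b to Sec24c with Sec24d ranged from -0.1621 to 0.06438. Among the pathway lists without WT replicate 5, DESeq2 called 3 genes at either setting of its filtering and limma-voom with quality weights 1, where edgeR called 0. Over all genes DESeq2 called 50 with all 10 libraries and 433 without WT replicate 5 at default settings, and 54 and 463 with filtering at 0.05; limma-voom called 17 and 143, and edgeR 0 and 2. The causes of these changes were not tested.

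Each COPII gene had 383 counts or more in every library, so the spread between libraries rather than counting limits these comparisons. No paired analysis was possible, since the labels pair no KO with a WT library and the genotypes share no leading number. The labels carry no replicate numbers either, and those used here follow the order of the sample records.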
